A study of Mus musculus with 16 samples.

Results

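The comparison described here is the change with age in the nucleus pulposus of control mice, 14 months against 6 months. The nucleus pulposus is the soft gel at the centre of each intervertebral disc. It comprised 8 of the 16 Affymetrix arrays, 4 of control tissue at 6 months and 4 at 14 months, chosen by their titles. The features were the 18732 of 22206 probe sets that carry a gene symbol and whose identifiers do not place them on the X or Y chromosome. They stand for 18680 genes. Both control groups carried the floxed HIF-2α alleles (HIF-2αf/f) without the Cre. The other 8 arrays, labelled FoxA2Cre; HIF-2αf/f (cKO), 4 at each age, entered the fit for their spread and at the end the change with age in them is set beside that in controls. FoxA2Cre is driven by the promoter of Foxa2, a gene of the notochord and of endoderm-derived organs. The labels do not say whether an array holds tissue of 1 mouse or of several, or from which spinal levels the discs came. The p-values therefore measure the spread between arrays. The labels do not say whether the 2 ages were processed together, so age and any such difference cannot be told apart.

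Cells of the nucleus pulposus descend from the embryonic notochord. They live without blood vessels, at low oxygen and high osmotic pressure, in a gel of aggrecan and type II collagen that they secrete, and they rely on hypoxia-inducible factor (HIF) and on glycolysis. In mice these vacuolated cells are lost or change their character with age, and the gel becomes more fibrous.

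The levels of markers of the labelled tissue were examined. Of 20 measured genes in a list of nucleus pulposus and notochord markers, 14 lay on all 8 control arrays above the median of 1407 probe sets for olfactory and vomeronasal receptors. A further 4 did so on some arrays and 2 on none. Those receptors are genes of sensory epithelia, and their median marks the dim end of the scale (5.45 at 6 months and 4.77 at 14 months, log2). The median level of all probe sets was 6.35, and 21 of 36 Wnt signalling genes also passed on all 8 arrays. Passing this low bar therefore does not identify the tissue. Car3, a carbonic anhydrase abundant in the nucleus pulposus, read 19.78, 19.88, 19.57 and 19.54 at 6 months and 19.81, 19.92, 19.93 and 19.93 at 14 months. Cd24a, a surface protein used to sort these cells, read 18.16 to 18.52 and 18.01 to 18.48. Both markers were bright at both ages. The change of Car3 was 0.21 (limma, adjusted p = 0.33) and that of Cd24a -0.04 (0.90), and neither passed the test. After interquartile scaling both were called lower, Car3 by -1.72 (adjusted p = 7.6e-04) and Cd24a by -1.73 (1.2e-04). Values here are log2 expression values as deposited, a change is the difference of 2 group means of 4 arrays in log2 units with its standard error, and the adjusted p is from limma with Benjamini-Hochberg adjustment over all 22206 probe sets. A gene is called where its adjusted p is below 0.05.

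The arrays of the 2 ages also differed in the shape of their value distributions. The interquartile range was 3.30 ± 0.15 (SD, n = 4) at 6 months and 3.85 ± 0.21 (n = 4) at 14 months, and the median was 6.45 ± 0.04 and 6.25 ± 0.07. Neither measure overlapped between ages (two-sided exact permutation p = 0.029 for each, the smallest that 4 against 4 can give). Control array 4 at 14 months had the widest range of the 8 (4.14), stood farthest from the 6-month arrays on the first principal component, was the only one of the 8 with Y-linked genes above background, and carried the most skeletal muscle signal. The median change of all probe sets was -0.10. It was 0.02 after quantile normalization, 0.09 after aligning the array medians and 0.11 after scaling the interquartile ranges. Results that depend on this choice are given with their value under it.

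Between 6 and 14 months a large share of the measured genes changed in the control tissue, and as deposited calls of bright genes were mostly rises and those of dim ones mostly falls. Of all 22206 probe sets 34.1% were called. Of the 18732 described here 6265 were called (33.4%), 3360 higher at 14 months (17.9%) and 2905 lower (15.5%). Of these, 1925 were over 2-fold higher and 1224 over 2-fold lower, and 249 and 184 were over 4-fold. In 5355 probe sets (28.6%) the 4 values at one age did not overlap the 4 at the other, and 4701 of them were also called. Higher calls made up 53.6% of the called probe sets as deposited, 60% after quantile normalization, 72.8% after median alignment and 61.3% after interquartile scaling. Without control array 4 at 14 months the calls were 2535 higher and 1865 lower. By mean level over the 8 arrays, probe sets up to 6 were called higher in 2.57% and lower in 18.6%, those from 6 to 8 in 19.6% and 18.2%, and those above 8 were called higher in 39.1% and lower in 8.74%, or 42.1% and 8.46% above 10. After quantile normalization those above 8 were called higher in 24.7% and lower in 15.2%, and those up to 6 in 6.74% and 5.33%. The sensory receptors had a median change of -0.67, with 604 called lower and 0 higher, against -0.39 with 299 lower and 10 higher after quantile normalization. Falls of dim genes below are read against that background, and rises of bright genes against the 39.1% called higher above 8.

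**Figure D1:**
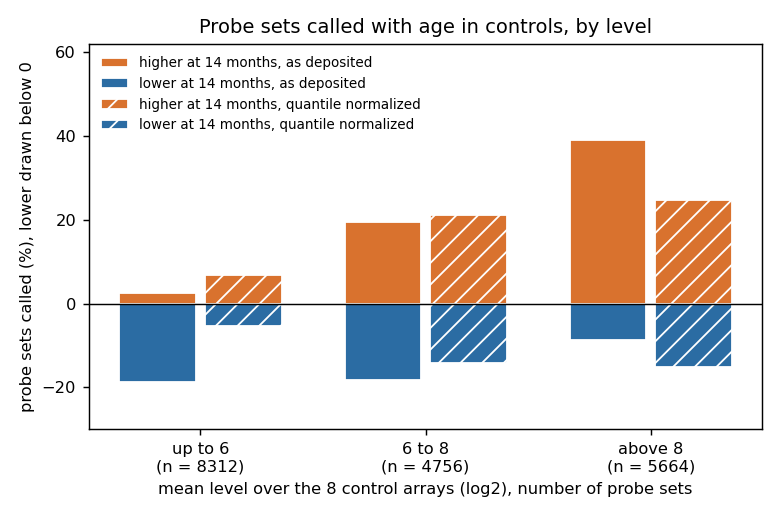
Share of probe sets called higher (above 0) or lower (below 0) at 14 months in controls, for 3 classes of mean log2 level over the 8 control arrays, as deposited (plain) and after quantile normalization (hatched). As deposited, 39.1% of the class above 8 were called higher and 8.74% lower, while the class up to 6 had 2.57% and 18.6%.

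The genes described next were chosen as the 12 largest called rises and 12 largest called falls among probe sets brighter than the median of all probe sets whose values do not overlap between ages, so their size and lack of overlap are how they were chosen. The rises belonged to genes with varied roles. Serpina3n, a secreted serine protease inhibitor of the acute phase, read 4.79, 5.46, 5.38 and 5.0 at 6 months and 15.09, 13.53, 9.49 and 15.56 at 14 months. The 6-month values lay near or below the receptor median, and the 14-month arrays were all higher but spread over 6 log2 units. Its change was 8.26 ± 1.97 (adjusted p = 0.0039). Nrn1, which encodes neuritin, a small membrane-anchored protein of neurite growth, read 7.14 to 7.86 at 6 months and 15.38, 14.86, 13.01 and 15.55 at 14 months, a change of 7.13 ± 0.58 or 140-fold (adjusted p = 4.7e-07). Array 3 was the lowest at 14 months. Ndnf, a secreted neuron-derived factor, read 12.84, 13.56, 12.41 and 13.06 and then 17.23, 17.47, 16.29 and 18.47, a 21.1-fold rise. Sorl1, a sorting receptor of the endosome, rose by 5.24 ± 0.82, from 8.11 to 8.75 at 6 months to 12.64 to 14.15 at 14 months.

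Lipid transfer was represented at the top of the list. Pltp, the phospholipid transfer protein, read 8.15, 9.0, 7.78 and 7.83 at 6 months and 13.54, 13.37, 12.40 and 14.49 at 14 months, a 38.3-fold rise (adjusted p = 2.6e-08). Abca1, which exports cholesterol and phospholipid from cells, read 7.02 to 7.92 and then 11.50 to 11.98, a change of 4.36 ± 0.36. Scd1, which puts a double bond into fatty acids, was among the 5 genes of smallest p and went from 13.37 ± 0.18 to 16.63 ± 0.52 (SD, n = 4 each). The remaining rises so chosen were Cdkn1a, Adm and 3 Hox genes, given with their groups below, and Kdm6b, a demethylase of lysine 27 of histone H3, which read 7.33, 7.33, 6.65 and 8.03 and then 11.51, 10.90, 11.45 and 12.09 (change 4.15 ± 0.34).

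Among the falls so chosen the largest was that of Fgl2, a secreted fibrinogen-like protein. It read 15.42, 16.12, 16.62 and 14.95 at 6 months and 8.90, 9.64, 11.62 and 8.15 at 14 months, 73.5-fold lower (change -6.20 ± 0.57, adjusted p = 1.3e-06). Mt2, a metallothionein that binds zinc and copper, went from 17.04, 17.72, 16.60 and 18.42 to 10.81, 11.87, 12.82 and 12.93, 40.4-fold lower. Array 3 was the highest at 14 months for Fgl2 and array 1 the lowest for Mt2. Gabrb2, a subunit of the GABA-A receptor, read 12.67, 12.89, 13.19 and 13.16 and then 8.15, 8.34, 8.20 and 7.15, the smallest p of any fall (adjusted p = 1.7e-08). Ipw, an imprinted noncoding transcript, was tight at 6 months (14.97 to 15.37) and scattered at 14 months (12.84, 9.21, 11.14 and 7.67). Slc7a8, a transporter of neutral amino acids, read 9.56 to 10.71 and then 5.43 to 6.57.

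Other large falls were in genes of the cell surface, the matrix and the cytoskeleton. Gpc6, a glypican, read 12.04, 12.21, 11.02 and 12.49 and then 7.73, 5.39, 9.56 and 6.68. Npnt (nephronectin), a basement membrane ligand of integrin α8β1, read 14.23 to 14.53 and then 9.79, 9.96, 11.76 and 10.33 (change -3.87 ± 0.38). Olfml2b, an olfactomedin-like matrix protein, fell by 3.80 ± 0.49. For Gpc6 and Npnt array 3 was the highest at 14 months. Epha3, a receptor for ephrins, fell by 4.02 ± 0.42, Krt20, an intermediate filament protein, by 3.89 ± 0.37, and Tmem176b, a membrane protein, by 4.54 ± 0.53. Id2, an inhibitor of DNA binding by helix-loop-helix factors, is given with BMP signalling below.

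**Figure D2:**
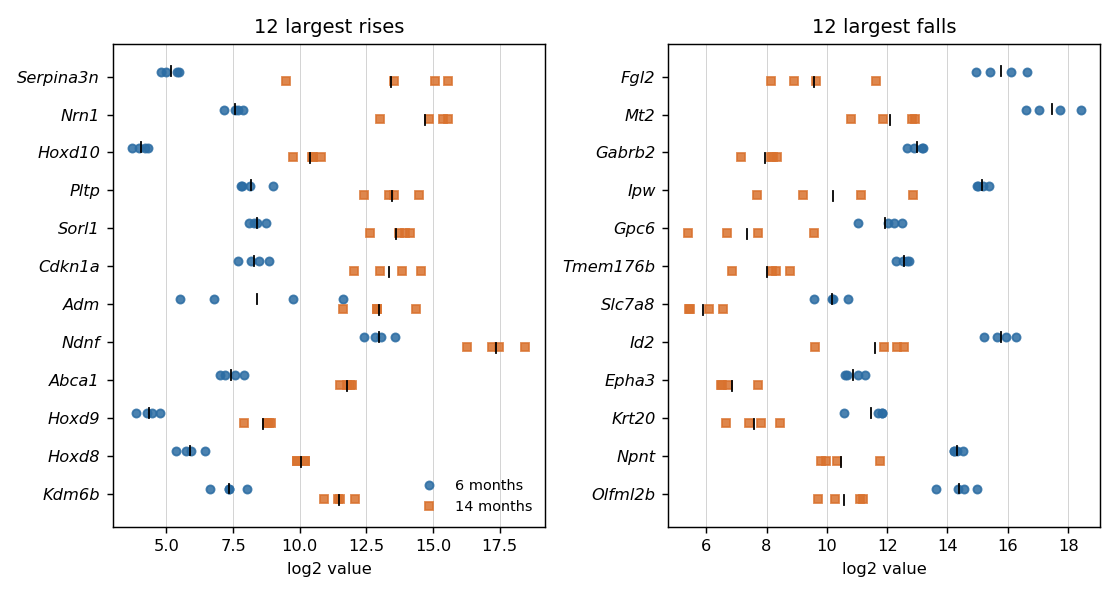
Log2 values of the 12 largest called rises (left) and 12 largest called falls (right), chosen among probe sets brighter than the median that do not overlap between ages, on the 4 control arrays at 6 months (circles) and the 4 at 14 months (squares), with the group means as black ticks. Lack of overlap was part of the choice of these genes; Adm at 6 months spreads from 5.50 to 11.61.

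Hox genes encode the transcription factors that set position along the body axis, with higher paralog numbers expressed toward the tail. They were examined as a family after 3 of them appeared among the largest rises, so the count describes a list chosen on its values. Of 33 measured Hox genes 9 were called higher and 0 lower, against 17.9% and 15.5% of all probe sets, and the count higher was 7 to 8 when any 1 control array was left out. It was 10 after quantile normalization, 11 after median alignment and 18 after interquartile scaling, with 0 lower in each. Hoxd10 had the smallest p of all probe sets. It read 4.21, 4.31, 3.96 and 3.72 at 6 months, below the receptor median, and 10.50, 10.81, 9.74 and 10.47 at 14 months (change 6.33 ± 0.27, adjusted p = 1.0e-10). Hoxd9 went from 4.25, 4.47, 3.86 and 4.77 to 8.83, 7.92, 8.91 and 8.77, and Hoxd8 from 5.74, 5.91, 6.46 and 5.36 to 10.19, 10.18, 9.89 and 9.91. These genes had low values on every 6-month array, so the size of their folds depends on the floor of the scale. Hoxa10 rose by 3.47 ± 0.32 and Hoxd11 by 1.83 ± 0.33.

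Smaller rises were measured beside these. Hoxa6 (1.07 ± 0.26), Hoxa3 (0.99 ± 0.35), Hoxb7 (0.88 ± 0.24) and Hoxa4 (0.67 ± 0.22) were also called. Hoxa3 lost its call after quantile normalization (limma, adjusted p = 0.059). Its call was also lost without control array 2, 3 or 4 at 14 months or array 1, 2 or 4 at 6 months (0.052 to 0.10). Hoxa4 lost its call without control array 1, 2 or 4 at 14 months or array 2 or 3 at 6 months (0.052 to 0.078). Hoxa5, which read 10.21 to 11.16 at 6 months and 10.43 to 11.60 at 14 months, was not called (0.43 ± 0.39). Hoxd13 read 3.32 to 3.65 and 3.28 to 4.31 and was called after interquartile scaling alone among the scalings (0.89, adjusted p = 0.0081), and as deposited no gene of the Hoxc cluster was called. In the cKO mice Hoxd10 changed by 7.01, Hoxd9 by 4.71, Hoxd8 by 4.29 and Hoxa10 by 3.92 between the same ages. The spinal levels sampled at each age are not given, and their part in these values was not tested.

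**Figure D3:**
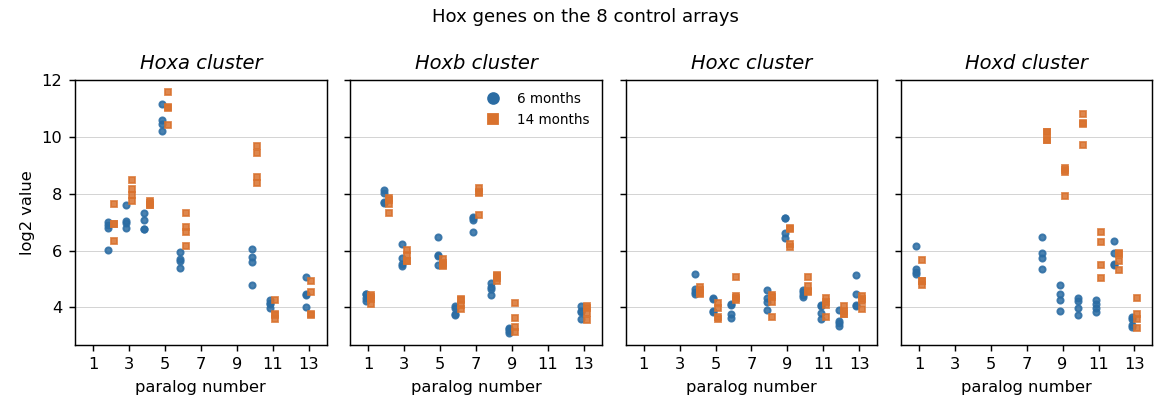
Log2 values of the 33 measured Hox genes by cluster (panels a to d) and paralog number on the 4 control arrays at 6 months (circles) and the 4 at 14 months (squares). Hoxd8, Hoxd9, Hoxd10 and Hoxa10 lie 3.47 to 6.33 higher in mean at 14 months, while the genes numbered 12 and 13 overlap between ages.

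The nucleus pulposus markers did not move as a block. Of the 20 measured, 4 were called higher and 4 lower, with a median change of -0.44 against -0.08 over the 18732 probe sets. After interquartile scaling the split was 3 and 9. Shh, the hedgehog ligand made by notochord cells, read 9.36 ± 0.44 (SD, n = 4) at 6 months, highest on array 1, and 7.45, 7.43, 8.16 and 7.60 at 14 months, 3.24-fold lower (adjusted p = 1.2e-04). The groups did not overlap. The paired keratins of this epithelium-like cell moved in opposite directions as deposited. Krt18 read 13.85, 14.00, 13.42 and 14.09 and then 11.16 to 12.24 on arrays 1, 2 and 4 and higher on array 3 (mean 12.03 ± 0.78), while its partner Krt8 went from 16.10, 16.52, 15.76 and 16.80 to 16.95, 17.14, 17.31 and 16.97. The fall of Krt18 (-1.81 ± 0.35) was called under every scaling. The rise of Krt8 (0.80 ± 0.22, adjusted p = 0.0096) was not called after quantile normalization (adjusted p = 0.13) and turned to -0.61 after interquartile scaling. Krt19 read 17.37 to 18.18 and 16.67 to 17.47 and was not called as deposited (-0.49), but was called lower after quantile normalization (-0.69, adjusted p = 0.018) and interquartile scaling (-2.07, 4.6e-06).

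Transcription factors of the notochord differed from one another. Foxa1 read 3.62 to 4.05 at 6 months and 5.11, 4.82, 4.15 and 5.53 at 14 months, a rise of 1.09 ± 0.25 at a level around the receptor median. Foxa2 read 5.21, 5.36, 4.59 and 5.08 and then 5.22, 6.66, 7.87 and 6.34, and it lost its call without control array 3 at 14 months (adjusted p = 0.054). Noto, the notochord homeobox gene, read 7.46 to 8.47 and 7.07 to 7.91 and was not called (-0.56 ± 0.29). Among surface and secreted markers, Ncam1, a cell adhesion molecule, fell by 1.25 ± 0.35. Sostdc1, a secreted BMP and Wnt antagonist, read 14.72, 13.69, 15.01 and 13.43 and then 11.22, 12.93, 13.83 and 12.53, with overlap between ages. Its call was lost without control array 1 (adjusted p = 0.086) or 4 (0.055) at 14 months or array 1 (0.071) or 3 (0.085) at 6 months.

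The hedgehog pathway carries the signal of Shh through Smo, which Ptch1 restrains, to the Gli factors, which Sufu holds back. Of 15 measured genes 4 were called higher and 2 lower, with a median change of 0.00, and only 1 was called higher without control array 4 at 14 months or array 1 at 6 months, and 2 without array 3 at 14 months or array 3 or 4 at 6 months. Gli1, a target gene whose level follows pathway activity, read 6.94, 6.62, 7.09 and 6.95 at 6 months and 5.74, 5.74, 6.03 and 5.71 at 14 months (change -1.09 ± 0.25, adjusted p = 0.0027). Sufu read 5.93 to 6.28 and then 6.73 to 7.83, a rise of 1.20 ± 0.27. The ligand and Gli1 were thus lower and the inhibitor higher, each without overlap. Ptch1, also a target gene, read 8.37, 8.98, 7.90 and 8.78 and then 8.51, 8.79, 9.03 and 9.12 and was not called. Smo rose by 0.68 ± 0.23. Its call was lost without control array 2 (adjusted p = 0.068) or 4 (0.11) at 14 months or array 1 (0.059) or 4 (0.069) at 6 months. With the 8 control arrays alone it was not called either (0.051).

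In the cartilage-like matrix the link protein Hapln1, the proteoglycans Prelp and Snorc and type II collagen fell, and the direction of aggrecan depended on the scaling. Of 30 measured genes of cartilage matrix and chondrocytes 2 were called higher and 8 lower, median change -0.29, and 4 were lower without control array 4 at 14 months and 5 without control array 1 or 3 at 6 months. Acan, which encodes aggrecan, read 19.14, 19.09, 18.95 and 19.08 and then 19.44, 19.30, 19.43 and 19.31 (0.30 ± 0.17, adjusted p = 0.17), near the top of the scale at both ages. It was called higher after median alignment (0.50, adjusted p = 0.027) and lower after interquartile scaling (-1.53, 0.0044). Hapln1, the link protein that ties aggrecan to hyaluronan, read 16.35, 16.49, 16.78 and 16.23 and then 14.74, 14.81, 15.53 and 14.71, 2.86-fold lower. Prelp, a small leucine-rich proteoglycan that anchors basement membrane to matrix, went from 16.78, 17.41, 17.30 and 17.41 to 15.18, 15.80, 15.63 and 15.29, 3.36-fold lower (adjusted p = 1.0e-04). Both falls were called under every scaling and with any 1 control array left out. Snorc, a transmembrane proteoglycan of chondrocytes, fell by 2.06 ± 0.39.

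Col2a1, type II collagen, read 8.69, 8.53, 8.84 and 8.63 at 6 months and 6.85, 8.0, 8.26 and 6.89 at 14 months, 2.25-fold lower (adjusted p = 0.0049). Every 14-month array was lower, with arrays 2 and 3 close to the 6-month level. Prg4, the lubricant proteoglycan of joint surfaces, moved the other way, from 7.55, 7.82, 6.63 and 7.93 to 9.20, 9.08, 9.95 and 8.17. Sox9, the master regulator of chondrocyte genes, read 15.66 to 17.15 and 16.60 to 17.19 and was not called (0.41 ± 0.30). Fmod, which binds collagen fibrils, had a change of -0.75 ± 0.30 (adjusted p = 0.062) and was called lower after quantile normalization (0.028), after interquartile scaling (5.6e-05) and without control array 3 at 14 months (0.033) or array 4 at 6 months (0.046). Of the 12 genes of hypertrophic cartilage and mineralization Mgp alone was called higher and 3 lower as deposited, against 3 higher and 0 lower after quantile normalization. The higher count was 2 without control array 1 or 4 at 14 months. This inhibitor of calcification read 10.07, 9.81, 10.60 and 9.36 and then 12.49, 12.64, 12.91 and 12.70, 6.61-fold higher, and the lower calls numbered 0 to 1 without any 1 control array other than array 2 at 6 months. Col10a1, the collagen of hypertrophic chondrocytes, read 4.63 to 6.71 and 4.24 to 5.46 and was not called.

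Genes of fibrous tissue were divided. Of 25 measured genes for fibrosis and for fibrillar or type VI collagens 4 were called higher and 2 lower, with a median change of -0.00. The lower count was 7 without control array 3 at 14 months, and the split was 7 higher and 8 lower after interquartile scaling. Col6a3, a chain of the pericellular type VI collagen, read 11.17, 11.89, 10.88 and 12.04 and then 13.23, 12.95, 13.22 and 12.98 (1.60 ± 0.29, adjusted p = 4.6e-04). Another chain of the same collagen, Col6a2, went from 13.30, 13.23, 12.98 and 12.61 to 11.52, 11.91, 12.82 and 11.75 (-1.03 ± 0.27). The chains of one collagen type thus moved in opposite directions, Col6a2 with overlap between ages, and both calls were also made after quantile normalization. Col5a1, which starts fibril assembly, rose by 1.76 ± 0.33, Thbs2, a matricellular thrombospondin, by 1.96 ± 0.40, and Bmp1, which trims procollagens, by 1.19 ± 0.29. Tagln, a smooth muscle and myofibroblast protein, read 12.51 to 13.07 and then 9.28, 10.83, 12.76 and 10.50. Fibrillar collagens I and III and fibronectin were not called as deposited: Col1a1 read 7.70 to 8.05 and 7.36 to 8.26, Col3a1 3.93 to 4.42 and 4.15 to 4.62, and the change of Fn1, fibronectin, was -0.28 ± 0.20. After interquartile scaling Col3a1 was called higher (0.68, adjusted p = 0.021) and Fn1 lower (-2.11, 2.8e-04).

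Of 18 measured genes of the basement membrane and pericellular matrix 4 were called higher and 1 lower, a share of rises close to the 17.9% over all probe sets. Hspg2, perlecan, read 9.26, 9.63, 8.87 and 9.66 and then 11.47, 11.75, 11.80 and 11.99, 5.27-fold higher (adjusted p = 5.2e-07). Lamc1, the γ1 chain common to most laminins, rose from 6.64, 7.25, 5.99 and 6.63 to 9.02, 9.31, 8.35 and 9.50, and Agrn, agrin, by 2.13 ± 0.33. The ages did not overlap in any of these 3. The lower count was 0 without control array 3 or 4 at 14 months or array 1 at 6 months, and 2 without array 2 at 6 months. Among 28 genes that build and sulfate glycosaminoglycan chains 4 were called higher and 2 lower, with Ext1, a polymerase of heparan sulfate, up 2.14 ± 0.26 and Ugp2, which makes UDP-glucose, up 1.67 ± 0.22, and the lower calls numbered 0 without control array 2 or 4 at 14 months or array 1 or 3 at 6 months, and 1 without array 1 or 3 at 14 months or array 4 at 6 months. The list's median change was 0.13, but -0.13 with 3 higher and 5 lower after interquartile scaling.

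Of 30 measured matrix proteases and their inhibitors 5 were called higher and 1 lower, with a median change of -0.01. The lower count was 3 without control array 2 at 6 months and 2 without array 1 at 14 months or array 4 at 6 months. Ctsl, a lysosomal and secreted cathepsin, read 8.96, 9.68, 9.78 and 9.05 and then 11.64 ± 0.96 (SD, n = 4), highest on array 4 (change 2.28 ± 0.39). Adamts5, an aggrecan-cleaving protease, read 5.28, 5.16, 5.28 and 5.06 and then 6.01, 6.50, 7.21 and 6.27 (adjusted p = 0.0048). All 4 of its 6-month values lay below the receptor median of 5.45, so no fold is given. Mmp14, a membrane-bound collagenase, rose by 1.63 ± 0.38 with overlap between ages. Adamts4 and Mmp13, the other aggrecanase and collagenase often named in disc disease, had changes of -0.33 ± 0.26 and -0.23 ± 0.26 that were not called. Timp2, an inhibitor of matrix metalloproteinases, rose by 0.66 ± 0.17, was not called after quantile normalization (adjusted p = 0.13) and turned to -0.70 after interquartile scaling. Of 21 integrin and adhesion genes 3 were called higher and 2 lower, the lower ones being Sdc1, syndecan-1 (-1.91 ± 0.24), and Ddr2, a receptor for fibrillar collagen (-1.67 ± 0.23). The median of that list was 0.17, but -0.13 with 0 higher and 6 lower after interquartile scaling.

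HIF is a pair of an oxygen-sensitive α subunit and a constant partner. Prolyl hydroxylases of the Egln family mark the α subunit for destruction through Vhl when oxygen is present, and at low oxygen HIF binds short ACGTG or GCGTG elements near its target genes. Of 10 measured genes of the pathway itself 3 were called higher and 0 lower (median change 0.50), and of 20 hypoxia response genes 10 were called higher and 0 lower (median 1.42). The median was 1.16 after quantile normalization, 0.69 with 10 higher and 1 lower after interquartile scaling, and 0.94 with 10 higher without control array 1 at 6 months. Among the 5664 probe sets with a mean level above 8, where 17 of the 20 lie, 39.1% were called higher, against 9 of those 17. Such an element is shown for 4 of the genes called higher, in a stretch of 60 bases placed around an element. The stretches begin 96 (Egln1), 63 (Bnip3), 94 (Higd1a) and 88 (Pfkfb3) bases before the transcription start. They come from the RefSeq GRCm38.p6 promoters, all on the minus strand and written 5′ to 3′, with the element in capitals. They are shown as the sequence a HIF site would need, at chr8:124949291-124949350 for Egln1, chr7:138909510-138909569 for Bnip3, chr9:121857831-121857890 for Higd1a and chr2:11553958-11554017 for Pfkfb3.
Egln1: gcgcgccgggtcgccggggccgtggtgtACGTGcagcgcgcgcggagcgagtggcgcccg
Bnip3: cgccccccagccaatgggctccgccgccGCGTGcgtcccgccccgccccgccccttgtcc
Higd1a: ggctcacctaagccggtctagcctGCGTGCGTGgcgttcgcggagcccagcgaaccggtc
Pfkfb3: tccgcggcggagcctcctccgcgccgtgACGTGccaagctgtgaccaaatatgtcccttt

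ACGTG or GCGTG was searched on both strands in the 250 bases before the start. It was present in 9 of 11 promoters of genes called higher on the HIF and hypoxia lists (of 13 such genes, 11 had a promoter in the table), in 10 of 13 promoters of genes on those lists that were not called, and in 38.6% of all 27025 promoters. The element was thus about as frequent in the uncalled as in the called genes of these lists. A match is a description of the letters and not a measured site.

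The oxygen sensor itself was among the clearest rises. Egln1, the main prolyl hydroxylase and itself a HIF target, read 13.37, 13.49, 12.87 and 13.26 at 6 months and 16.06, 15.78, 15.70 and 15.95 at 14 months, 6.17-fold higher (2.62 ± 0.19, adjusted p = 1.6e-07). The ages were more than 2 log2 units apart. Vhl rose by 0.87 ± 0.20, and Hif3a, a HIF α subunit with inhibitory forms, by 0.75 ± 0.23. The call of Hif3a was lost without control array 1 (adjusted p = 0.063) or 4 (0.056) at 14 months or array 2 at 6 months (0.052). With the 8 control arrays alone Hif3a was not called either (0.052). The α subunits of HIF-1 and HIF-2 were not called. Hif1a read 13.29 to 13.93 and 13.86 to 14.39 (0.47 ± 0.29). Epas1, which encodes HIF-2α and is the floxed gene, read 8.34, 10.63, 8.46 and 10.60 at 6 months and 10.15, 11.02, 11.81 and 9.79 at 14 months (1.19 ± 0.50, adjusted p = 0.073). It was called higher after median alignment (0.044) and without control array 4 at 14 months (0.043), array 2 at 6 months (0.024) or array 4 at 6 months (0.029).

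Among the response genes of smallest p were mitophagy receptors and a mitochondrial protein. Bnip3, which directs mitochondria to autophagy, read 12.29, 12.76, 12.11 and 11.57 and then 15.30, 15.40, 15.42 and 15.51, 9.35-fold higher (adjusted p = 4.7e-07). Its relative Bnip3l rose from 13.47, 14.27, 13.54 and 13.61 to 15.01, 15.12, 15.16 and 15.67. Higd1a, a hypoxia-induced protein of the respiratory chain, read 11.20 to 11.71 and then 15.84, 15.27, 13.91 and 15.32, 12.6-fold higher. Mxi1, an antagonist of MYC, rose by 1.92 ± 0.30. None of these overlapped between ages.

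In other response genes the 6-month arrays were divided. Adm, the vasodilator peptide adrenomedullin, read 5.50, 9.73, 6.79 and 11.61 at 6 months and 12.90, 12.91, 11.64 and 14.37 at 14 months (4.55 ± 0.95, adjusted p = 0.0015). Pfkfb3, which makes the activator of phosphofructokinase, read 10.86, 12.59, 11.14 and 12.85 and then 13.87, 13.67, 13.76 and 14.09 (1.99 ± 0.36). Arrays 1 and 3 at 6 months were the low ones in both. The median over the list of each gene's deviation from its 8-array mean was -0.93 and -0.94 on those arrays. It was -0.13 and -0.19 on arrays 2 and 4, and 0.33 to 0.87 on the 14-month arrays. Vegfa, the angiogenic factor, read 14.18, 14.85, 13.55 and 15.95 and then 15.33, 14.97, 14.76 and 14.87 and was not called.

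Of 17 glycolysis and glucose uptake genes 7 were called higher and 2 lower, with a median change of 0.41, but 1 was higher and 7 lower after interquartile scaling, with a median of -0.35. All 17 had mean levels above 8, where 39.1% of probe sets were called higher as deposited, a share close to that of this list. Slc2a1, the glucose transporter GLUT1 and a marker of these cells, read 18.25, 18.13, 17.84 and 18.37 and then 19.81, 19.78, 19.65 and 19.81, 3.06-fold higher (adjusted p = 5.3e-06). The 14-month values stand close to the highest value in the table, 19.93, and after interquartile scaling the change was -0.13 (adjusted p = 0.79). Hk2, the inducible hexokinase, rose from 8.53, 9.51, 9.56 and 8.97 to 11.76, 11.19, 11.16 and 11.92, 5.15-fold. Pdk1, which shuts pyruvate out of the mitochondrion, was tight at both ages, 11.93, 11.93, 11.78 and 11.96 and then 13.17, 13.09, 13.24 and 13.06. Ldha, which makes lactate, rose by 0.88 ± 0.21, but its change was -0.75 after interquartile scaling, and Pdk1 was not called there (adjusted p = 0.076).

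Many nuclear genes of the respiratory chain were higher at 14 months. Of 32 measured oxidative phosphorylation genes 24 were called higher and 0 lower, with a median change of 1.10 (0.76 with 19 higher after quantile normalization, and 0.62 with 15 higher after interquartile scaling). Ndufv1, which holds the NADH site of complex I, read 9.84, 9.69, 10.10 and 10.36 and then 11.85, 11.72, 11.95 and 12.03, 3.71-fold higher. Uqcrc1, a core subunit of complex III, read 6.32, 6.43, 6.70 and 5.60 and then 8.17, 8.40, 8.29 and 8.84. Neither overlapped between ages. In the citric acid cycle 8 of 17 genes were called higher and 1 lower, led by subunits of succinate dehydrogenase, which also forms complex II. Sdhb rose by 1.81 ± 0.19 and Sdhd by 1.77 ± 0.32. In the list of fatty acid oxidation and lipid handling 4 of 17 were called higher and 2 lower, and only 1 was called higher without control array 4 at 14 months. Cd36, a fatty acid uptake receptor, read 10.72, 8.76, 10.86 and 8.13 and then 5.94, 7.55, 5.12 and 7.41, 8.65-fold lower, and Cpt1a, the gate of mitochondrial fatty acid import, fell by 1.13 ± 0.26. Pnpla2, a triglyceride lipase, rose by 1.67 ± 0.31. In cholesterol synthesis 3 of 15 were called higher and 2 lower, 1 was higher without control array 4 at 14 months or array 3 at 6 months, and 1 was lower without array 2 at 14 months or array 4 at 6 months.

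**Figure D4:**
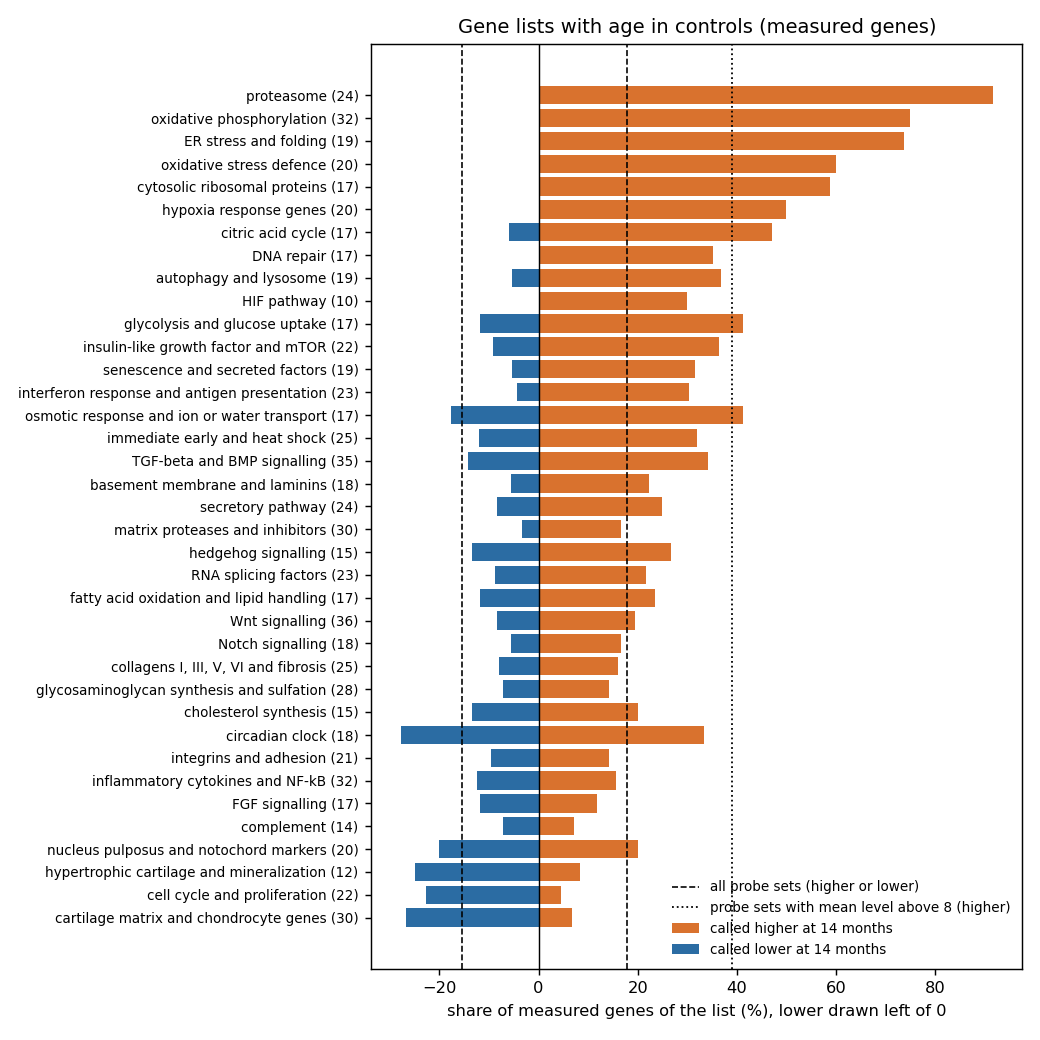
Share of the measured genes of each list called higher (right) or lower (left) at 14 months in controls, with the number measured in brackets. Dashed lines give the shares over all probe sets (17.9% higher and 15.5% lower) and the dotted line the share called higher among probe sets with mean level above 8 (39.1%); the proteasome has 22 of 24 genes higher and the cartilage matrix list 8 of 30 lower.

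The proteasome, the complex that degrades ubiquitin-tagged proteins, had the highest share of rises of any list. Of 24 measured subunits 22 were called higher and 0 lower, with a median change of 1.40 (1.03 with 19 higher after quantile normalization). Psma7, a subunit of the outer ring of the core, read 6.71, 7.30, 6.40 and 6.14 and then 9.49, 9.76, 9.22 and 10.21, 8.18-fold higher. Psma6, of the same ring, rose by 2.07 ± 0.22, Psmc6, an ATPase of the cap, by 1.96 ± 0.23, and Psmb3, of the inner ring, by 1.86 ± 0.23. Ring and cap subunits rose alike in direction. The cKO arrays had 19 of the 24 called higher with age and 0 lower.

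Genes of protein folding in the endoplasmic reticulum followed, with 14 of 19 called higher and 0 lower (median 0.84), with 8 of 19 higher after quantile normalization, and 4 higher and 1 lower after interquartile scaling. Dnajc3, a chaperone and inhibitor of the kinase PERK, read 10.52, 10.57, 10.31 and 10.32 and then 11.98, 12.16, 12.01 and 11.81. Dnajb9 rose by 1.47 ± 0.22, Sel1l, an adaptor of ER-associated degradation, by 1.15 ± 0.22, and Xbp1, the transcription factor of the unfolded protein response, by 1.37 ± 0.27, the last pair not called after interquartile scaling (adjusted p = 0.068 and 0.065 by limma). In the secretory pathway 6 of 24 were called higher and 2 lower as deposited, but 1 higher and 7 lower after quantile normalization, so its direction rests on the scaling. Of its 20 genes with mean levels above 8, 5 were called higher, below the 39.1% of all probe sets above 8. Copa, a coat protein of retrograde vesicles, went from 13.11, 13.67, 13.41 and 12.87 to 11.63, 11.82, 12.39 and 11.30 (-1.48 ± 0.26), a call made under every scaling. Cytosolic ribosomal proteins had 10 of 17 called higher and 0 lower, with a median change of 0.67, but 3 were higher and 8 lower with a median of -0.46 after interquartile scaling. Rpl11 read 15.13 to 15.78 and then 17.18 to 18.03. In autophagy and the lysosome 7 of 19 were called higher and 1 lower (median 0.51), but 5 higher and 4 lower after interquartile scaling (median 0.05), with Map1lc3a, a protein of the autophagosome membrane, up 1.77 ± 0.29 and Foxo1 down (-1.50 ± 0.34). Of 23 splicing factors, all with mean levels above 8, 5 were called higher and 2 lower. That share of rises lay below the 39.1% of all probe sets above 8. The median was 0.27, and -0.10 after quantile normalization. Cirbp, the cold-inducible RNA-binding protein, rose by 2.02 ± 0.33.

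Of 20 measured genes of defence against oxidative stress 12 were called higher and 0 lower, with a median change of 1.01 and again 12 higher after quantile normalization, and 9 higher and 1 lower after interquartile scaling (median 0.68). Gpx1, the cytosolic glutathione peroxidase, read 13.56, 14.55, 14.10 and 14.34 and then 16.18, 16.28, 16.37 and 16.65, 4.70-fold higher (adjusted p = 1.2e-05). Gpx4, which reduces lipid peroxides, rose by 1.71 ± 0.23. Gsr, which regenerates glutathione, read 7.10, 7.15, 7.0 and 7.05 and then 8.91, 9.09, 8.31 and 9.29. The 6-month arrays were tight for Gsr and none reached the 14-month values. Sod1, the cytosolic superoxide dismutase, rose by 1.61 ± 0.24, a call not made after interquartile scaling (adjusted p = 0.057). In DNA repair 6 of 17 genes were called higher and 0 lower. Xpa, which verifies damage in nucleotide excision repair, read 8.72, 8.59, 8.47 and 8.47 and then 10.96, 10.88, 11.27 and 11.58, 6.11-fold higher (adjusted p = 3.6e-07), and Ogg1, which removes oxidized guanine, rose by 1.30 ± 0.22.

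Of 19 genes tied to senescence and its secreted factors 6 were called higher and 1 lower, with a median change of 0.02. Cdkn1a, the cell cycle inhibitor p21, read 7.70, 8.49, 8.18 and 8.85 at 6 months and 13.01, 13.83, 12.05 and 14.54 at 14 months, 33.2-fold higher (5.05 ± 0.45, adjusted p = 1.0e-06). Cdkn2a, the inhibitor p16 and the other common senescence marker, read 3.39 to 3.59 and then 3.55 to 4.18, below the receptor median on all 8 arrays, and was not called (0.34 ± 0.25). After interquartile scaling it was called (0.99, limma, adjusted p = 0.0077), so its call depends on the scaling. That scaling raises values far below the array median at 14 months relative to 6 months. Rb1, the retinoblastoma protein through which both inhibitors act, rose by 1.32 ± 0.18 and Tgfb1, a secreted growth factor, by 1.50 ± 0.34. Ccl2, a chemokine of the secretory phenotype, read 6.44 to 6.76 and then 5.23 to 5.88. The count called lower was 2 without control array 1 or 4 at 14 months or array 2 at 6 months.

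Among 22 proliferation genes 1 was called higher and 5 lower, with a median change of -0.16 that was 0.07 after quantile normalization, and the 5 became 2 to 4 when any 1 control array was left out (2 without array 2 or 3 at 14 months or array 2 at 6 months). The higher count was 2 without array 1 or 3 at 14 months. Pcna, the sliding clamp of DNA synthesis and repair, was the 1 called higher (12.20 ± 0.28 and 13.27 ± 0.25, SD, n = 4 each), a call not made after interquartile scaling (limma, adjusted p = 0.45). Cdk1, the mitotic kinase, read 3.66 to 3.91 and 3.00 to 3.39, below the receptor median throughout, and its change was 0.07 after interquartile scaling. In the insulin-like growth factor and mTOR list 8 of 22 were called higher and 2 lower, the lower count being 1 without any 1 control array other than array 2 at 14 months and array 4 at 6 months. Eif4ebp1, a repressor of translation controlled by mTOR, read 6.79, 7.94, 7.71 and 7.25 and then 9.42, 9.65, 8.87 and 10.46. Rptor, the scaffold of mTOR complex 1, rose by 1.82 ± 0.29, Akt1 by 2.09 ± 0.36 and the receptor Igf1r by 1.59 ± 0.26.

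In TGF-β and BMP signalling 12 of 35 genes were called higher and 5 lower, and of the genes named the targets fell and the receptors rose. The Id genes, direct targets of BMP signals, fell. Id2 read 15.22, 15.65, 15.93 and 16.28 and then 11.88, 12.31, 12.56 and 9.62, 18.1-fold lower. Id1 read 12.26, 12.51, 12.28 and 13.21 and then 9.74, 10.41, 9.97 and 8.88, 7.04-fold lower, and Id3 fell by 1.68 ± 0.40. The receptors named, taken from the called genes of smallest p on the list, went up. On the list as a whole 18 of the 35 genes were not called. Bmpr2, the type II BMP receptor, rose from 11.93, 12.13, 11.22 and 11.31 to 13.02, 13.33, 13.50 and 13.23, and Tgfbr3, a co-receptor, by 1.49 ± 0.21. The Id falls and both receptor rises were called under every scaling and with any 1 control array left out.

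In Wnt signalling 7 of 36 genes were called higher and 3 lower, and 5 lower without control array 2 at 6 months. The share of rises was close to the 17.9% over all probe sets. Wnt16, a ligand of bone and joint tissue, read 8.57, 9.09, 8.56 and 9.20 and then 11.67, 12.01, 11.76 and 12.51, 8.77-fold higher (adjusted p = 5.4e-07). The receptors Fzd2 (1.98 ± 0.40) and Fzd8 (1.37 ± 0.27) rose, and Dkk3, of the Dickkopf family of secreted proteins, fell (-1.63 ± 0.32). In Notch signalling 3 of 18 were called higher and 1 lower, a share of rises also close to 17.9%. Rbpj, the DNA-binding partner of Notch, rose from 10.58, 9.86, 9.96 and 9.90 to 11.82, 11.91, 11.65 and 11.87, and Notch1 by 1.45 ± 0.29, while the ligand Dll1 fell by 1.01 ± 0.36, a call not made after quantile normalization (adjusted p = 0.13) and lost without control array 1 at 6 months (0.14). The lower count of the list was also 0 without array 2, 3 or 4 at 14 months. In FGF signalling 2 of 17 were called higher and 2 lower, and 1 lower without control array 4 at 6 months. Fgfr1 read 6.22, 6.51, 6.81 and 7.34 and then 9.15, 8.73, 8.87 and 9.67, 5.22-fold higher, and Fgf18, a ligand that promotes cartilage matrix, fell by 1.05 ± 0.29.

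Disc cells withstand high osmotic pressure by taking up organic osmolytes. Of 17 genes of the osmotic response and of ion or water transport 7 were called higher and 3 lower, and 4 to 5 were higher when any 1 control array was left out (5 without array 2 or 3 at 14 months). The 2 osmolyte transporters of smallest p moved in opposite directions. Slc6a12, the betaine transporter, read 12.32, 12.78, 12.18 and 12.13 and then 8.17, 7.84, 9.49 and 9.60, 11.9-fold lower (adjusted p = 6.7e-06). Slc6a6, the taurine transporter, went from 13.46, 13.20, 12.75 and 13.13 to 15.67, 14.86, 14.48 and 14.67, a call not made after interquartile scaling (adjusted p = 0.15). Trpv4, a cation channel opened by swelling and stretch, read 7.65, 7.26, 5.56 and 7.22 and then 9.61 ± 0.45 (SD, n = 4), without overlap. Slc9a3r1, a scaffold of membrane transporters, rose by 2.70 ± 0.40.

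Clock genes and immediate early genes vary with time of day and with handling, which the labels do not give. Of 18 clock genes 6 were called higher and 5 lower, and 3 higher and 5 lower after quantile normalization. Nr1d1, a repressor of the clock, read 14.37 to 15.07 and then 12.79 to 13.42, and Bhlhe41, another repressor, 15.65 to 16.11 and then 14.89 to 15.42. Cry2, a cryptochrome, rose by 1.90 ± 0.35 and Hlf, an output factor, by 1.42 ± 0.29. Of 25 immediate early and heat shock genes 8 were called higher and 3 lower, and 1 lower without control array 2 at 6 months. Among the 15 with mean levels above 8, 6 were called higher, close to the 39.1% of all probe sets above 8. The list's median was 0.19, and -0.13 after quantile normalization. Klf4, a transcription factor also used in reprogramming, rose from 6.46, 7.18, 6.59 and 7.61 to 9.18, 8.96, 8.54 and 9.75, and Jund, a partner of the AP-1 complex, by 2.10 ± 0.29. The classical immediate early genes split the 6-month arrays as Adm did. Fos read 8.79, 11.68, 8.97 and 11.36 and then 8.37, 8.20, 8.87 and 7.74, and Egr1 9.54, 11.48, 7.91 and 12.21 and then 10.95, 10.62, 10.71 and 9.61, and neither was called as deposited. Arrays 2 and 4 at 6 months were the high ones in both. The change of Fos was -1.91 (adjusted p = 0.053) and was called after quantile normalization (0.029), after interquartile scaling (0.028) and without control array 1 (0.029) or 3 (0.037) at 6 months.

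Genes of inflammation were called in both directions as deposited. Of 32 genes of inflammatory cytokines and NF-κB 5 were called higher and 4 lower, with a median of -0.29. All 5 rises and 0 of the falls were among the 8 genes with mean levels above 8, so the falls were of dimmer genes. After quantile normalization 4 were called higher and 2 lower, with a median of 0.01. Rela, the p65 subunit of NF-κB, read 13.99, 13.80, 13.82 and 13.56 and then 15.50, 15.14, 15.16 and 15.43, a rise of 1.51 ± 0.17 that was not called after interquartile scaling (adjusted p = 0.16). The receptor Tnfrsf1a rose by 1.09 ± 0.25 and the cytokine Il18 by 1.08 ± 0.28. Of 23 genes of the interferon response and antigen presentation 7 were called higher and 1 lower, the lower count being 0 without control array 4 at 14 months or array 1 at 6 months and 2 without array 2 at 14 months. Stat2 (1.16 ± 0.21), Irf9 (1.12 ± 0.25), which join in the factor that switches on interferon-stimulated genes, Ifit3, such a gene (1.47 ± 0.36), and Tap1, the peptide transporter of antigen presentation (1.05 ± 0.22), all rose. Of 14 complement genes 1 was called in each direction, Cd55, which protects cells from complement, from 11.75, 12.31, 11.58 and 11.83 to 13.28, 14.26, 15.01 and 15.30, and the inhibitor Serping1 (-1.10 ± 0.25). The lower count was 2 without control array 1, 3 or 4 at 14 months or array 4 at 6 months.

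Markers of other cell types that dissection could carry along were mostly dim, and most of them were not called in either direction. In bulk tissue fewer cells of a type and less RNA per cell cannot be told apart. Of 15 neutrophil and marrow myeloid markers 0 were called higher and 2 lower, with 1 above the receptor median on all 8 arrays. The log2 of their summed linear levels was 8.85 to 10.94 at 6 months and 8.56 to 8.88 at 14 months. Macrophage markers had 4 of 12 lower (summed level 10.47 to 11.37 and 10.15 to 11.42), lymphocyte markers 5 of 10, megakaryocyte markers 3 of 5, endothelial markers 3 of 11, osteoblast markers 3 of 10, osteoclast markers 2 of 9, erythroid markers 1 of 5 and annulus, tendon and fibroblast markers 2 of 12, with 0 higher in each, where 18.6% of all probe sets with a mean level up to 6 were called lower. Lyve1, found on lymphatic vessels and tissue macrophages, read 5.47 to 6.02 and then 3.79 to 4.67, and Mrc1, the macrophage mannose receptor, 7.89, 6.85, 7.93 and 7.88 and then 6.24, 6.59, 6.20 and 6.32. The summed levels at 6 and 14 months were 9.02 to 9.66 and 8.52 to 8.89 for lymphocyte, 9.26 to 9.77 and 8.16 to 9.11 for megakaryocyte and 9.04 to 9.48 and 8.67 to 9.08 for erythroid markers. They were 10.40 to 11.48 and 9.72 to 11.66 for endothelial, 9.18 to 9.46 and 8.96 to 10.86 for osteoblast, 9.72 to 10.33 and 10.01 to 10.35 for osteoclast and 11.55 to 12.25 and 12.08 to 14.12 for annulus markers. Only the lymphocyte and megakaryocyte sums were lower at 14 months without overlap. After quantile normalization the lists of neutrophil, erythroid, endothelial and osteoblast markers had 0 called lower. Calls higher there numbered 2 for osteoblast and 1 each for endothelial, macrophage, lymphocyte and annulus markers. After interquartile scaling they were 3 for osteoblast and 2 for endothelial markers, with 0 lower in both. After median alignment 3 annulus markers were called higher and 0 lower. The 0 higher given above thus holds as deposited. With any 1 control array left out the lymphocyte count called lower was 2 to 4 and the neutrophil count 0 to 3. Without control array 4 at 14 months the lower calls were 2 macrophage, 2 lymphocyte, 1 endothelial and 0 neutrophil, erythroid, osteoblast and annulus markers. Without array 3 at 6 months they were 0 osteoblast and 1 annulus marker, without array 4 at 6 months 3 erythroid markers and 1 osteoblast marker, and without array 2 at 6 months 0 annulus markers. Their part in the results above was not tested.

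As deposited, muscle, nerve and fat markers were the cell type lists with calls higher. Of 15 skeletal muscle markers 2 were called higher and 0 lower, and 4 were higher without control array 1 at 14 months and 1 without array 2, 3 or 4 at 6 months. Tnnt3, fast troponin T, read 4.15 to 4.86 and then 5.13, 7.39, 4.92 and 8.76, and Mylpf, a fast myosin light chain, 3.41 to 4.29 and then 4.91, 5.28, 4.25 and 9.11. Array 4 at 14 months was the high one in both. The list's median deviation from the 8-array mean was 1.21 there against -0.47 to 0.10 on the other 7. The part of that array in the results was not tested beyond leaving it out. Of 11 nerve and Schwann cell markers S100b (1.32 ± 0.24) and Pmp22 (1.01 ± 0.27), both also expressed in cartilage-like cells, were called higher, Pmp22 not after quantile normalization (limma, adjusted p = 0.083) and with a change of -0.20 after interquartile scaling, and Gap43, of growing axons, lower (-1.49 ± 0.32). Of 8 fat markers 2 were called in each direction, with 0 lower without control array 2 at 14 months or array 3 at 6 months and after quantile normalization, with Pparg, the adipogenic nuclear receptor, up 1.26 ± 0.35 and Plin4, a lipid droplet coat protein, up 1.24 ± 0.30.

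In the cKO mice the same ages were compared. Y-linked genes were above background on cKO arrays 2, 3 and 4 at 6 months and 1, 2 and 4 at 14 months. Among the controls this held for array 4 at 14 months alone, so the genotypes differed in sex as well. The means of the 2 comparisons come from different arrays, but both take their spread from the fit over all 16, and over all probe sets the control calls were 7578 in that fit and 6858 with the 8 control arrays alone. In the cKO mice 4152 of the probe sets were called (22.2%), 2516 higher (13.4%) and 1636 lower (8.73%). Of the 6265 control calls 2836 were called in the same direction in cKO, which is 45.3% of the control calls and 68.3% of the cKO calls, 15 were called in the opposite direction, and 3414 were not called. Across genes the 2 changes had a Pearson r of 0.78, a description over probe sets that share arrays within each genotype and are not independent. Gabrb2, Fgl2, Mt2, Nrn1 and Wnt16 changed by -5.84, -5.68, -6.31, 7.34 and 3.40 in cKO. Serpina3n, the largest of the rises described in controls, changed by 2.16 in cKO and was not called there, with values of 3.63 to 14.51 at 6 months already.

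The difference between the genotypes in the change with age was tested directly by the interaction term. It called 17 probe sets (0.0908%), with 1654 at an unadjusted p below 0.05, and 2 to 22 when any 1 control array was left out (2 without array 3 at 6 months, 5 without array 1 at 6 months, 9 and 10 without arrays 4 and 3 at 14 months). In 16 of the 17 the cKO change was the lower one. That fit had no term for sex, which also differed between the genotypes. With sex as covariate the interaction term called 19 probe sets. The part of sex in the differences was not tested further. Nr4a1, an immediate early nuclear receptor, read 6.10, 6.52, 5.34 and 7.30 and then 7.06, 6.34, 7.19 and 6.80 in controls (0.53 ± 0.37) but changed by -3.46 in cKO (adjusted p of the difference 0.0083). Ifrd1 rose by 2.01 ± 0.33 in controls and fell by 1.44 in cKO (0.0083), and Atf3, a stress-induced factor, changed by 0.45 and -3.86 (0.026). For the hypoxia-linked genes, the change was 2.62 in controls and 1.12 in cKO for Egln1 (0.043), 2.37 and -0.39 for Hk2 (0.041), 1.61 and 0.33 for Slc2a1 (0.046) and 1.28 and -0.70 for Fam162a (0.041). Ndnf was the exception, with 4.40 in controls and 7.20 in cKO (0.046). In list counts, 0 of 25 immediate early and heat shock genes were called higher and 13 lower with age in cKO, and 0 of 17 glycolysis genes higher and 6 lower, against 8 and 3 and 7 and 2 in controls. These counts are as deposited. After interquartile scaling the glycolysis counts in controls were 1 higher and 7 lower, so that contrast depends on the scaling. The list differences were not tested as such.

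**Figure D5:**
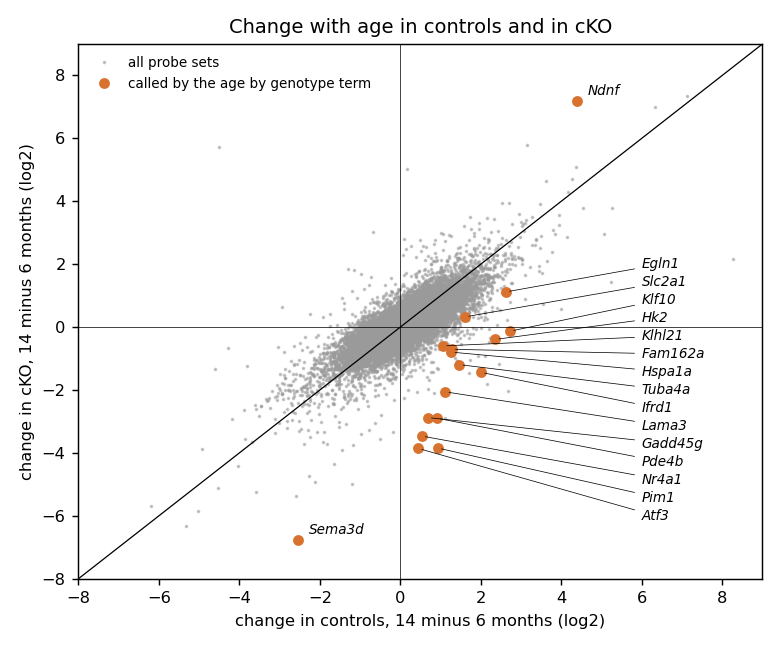
Change from 6 to 14 months in cKO (vertical, log2) against the change in controls (horizontal, log2) for the 18732 probe sets, with the line of equal change. The 17 genes called by the age by genotype term are drawn larger and named; 16 lie below the line and Ndnf above it.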

How the data were processed

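Total RNA of nucleus pulposus was measured on 16 Affymetrix arrays, 4 per genotype and age. The values are log2 expression values per probe set as deposited by the authors. The software, background correction and summarization behind them are not named in the sources at hand, and no scanner intensities were used. Members and gene lists were chosen with earlier results of these data known. Symbols came from the platform annotation: 19572 of 22206 probe sets had 1 symbol and 2634 none, and 840 with X or Y identifiers were left out. limma (3.58.1, R 4.3.3) fitted the 4 group means over the 16 arrays with lmFit and eBayes, without further normalization or filter. Each contrast was adjusted by Benjamini-Hochberg over 22206 probe sets, with calls at 0.05.

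Named genes were the 12 largest called rises and falls among brighter genes without overlap, the 5 of smallest p, up to 4 per list by p, all genes called by the age by genotype term, and members of the marker, matrix, collagen, HIF and hedgehog lists. Adamts4, Cdkn2a, Col10a1, Egr1, Fos, Id3, Mmp13, Pfkfb3, Vegfa and the Hox genes beyond that rule were chosen after their values were seen. Simulated data of 22206 probe sets took the spread of the fit used for the 14 against 6 months comparison. Only 100 probe sets were changed at each size, and 33 of 100 changes of 1 log2 unit and 99 of 100 changes of 2 were recovered, with 8 false calls. In the control data 34.1% of all 22206 probe sets were called, a far larger share than was changed in the simulation. The Benjamini-Hochberg cut-off depends on that share, so these recoveries do not give the rate for the measured data. The number of arrays limits the precision. Alternatives were other scalings, filters, weights, covariates and leaving out each control array in turn. No cKO array was left out, so the cKO changes and the age by genotype calls were not tested in that way.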

Additional observations from a re-analysis of the deposited data

Results flagged for a closer look

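Among the genes named, 374 groups of 4 control arrays were examined for an array far from the other 3 by Dixon's test, and 17 had one, where chance gives about 1 in 20. At 6 months array 1 was high for Rbpj (10.58) and Dll1 (6.96), array 2 was low for Mrc1 (6.85), array 3 was low for Fzd2 (7.14), Krt20 (10.58) and Pdk1 (11.78), and array 4 was low for Bhlhe41 (15.65) and high for Bmp1 (6.68). At 14 months array 1 was low for Car3 (19.81) and Col1a1 (7.36), array 2 was low for Hoxd9 (7.92), array 3 was high for Gli1 (6.03) and Hapln1 (15.53), and array 4 was high for Bmp1 (8.23), Gadd45g (8.56) and Pmp22 (16.30) and low for Gabrb2 (7.15).

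The change with age differed between genotypes by the interaction term in 17 genes. The cKO change minus the control change, in log2 units, was -4.0 for Nr4a1, -3.45 for Ifrd1, -2.66 for Tuba4a, -2.86 for Klf10, -3.56 for Gadd45g and -4.31 for Atf3. It was -3.81 for Pde4b, -2.07 for Hspa1a, -4.21 for Sema3d, -3.18 for Lama3, -1.99 for Fam162a and -1.67 for Klhl21. It was -2.75 for Hk2, -4.78 for Pim1, -1.50 for Egln1, -1.29 for Slc2a1 and 2.80 for Ndnf.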

How the results depend on the processing

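Over all 22206 probe sets 7578 were called with age in controls, 3732 higher and 3846 lower, and 17 by the age by genotype term. The lower calls numbered 2360 after median alignment and 2046 with dim probe sets left out. At an adjusted p under 0.01 the limma calls were 4233 (2335 higher, 1898 lower, 2 by the age by genotype term), and with a change over 2-fold 4010 (2137 and 1873). The age by genotype calls numbered 39 over named probe sets outside X and Y alone, 43 with array weights, 9 without the male control array, and 2 to 22 without 1 control array. After interquartile scaling the change turned for Acan (-1.53), Car3 (-1.72), Cdk1 (0.07), Krt8 (-0.61), Ldha (-0.75), Pmp22 (-0.20), Slc2a1 (-0.13) and Timp2 (-0.70). This scaling multiplies each value's distance from its array median by a factor that is smaller for arrays of wider range. The 14-month control arrays had the wider range (mean 3.85 against 3.30). Values far above the median were therefore lowered there relative to 6 months, and values far below it were raised. What set the ranges apart was not tested. Of 160 named genes called, 137 kept their call in every alternative run for them. The alternatives numbered 20 for most genes and 19 for the 10 that the filter on dim probe sets removed. Most of these genes were named for a small p or a large change, which favours keeping a call. Of all 6265 called probe sets described here, 4072 kept call and direction after quantile normalization, 4993 after median alignment and 3853 after interquartile scaling. Array numbers are shared between ages but do not pair the arrays: deviations of same-numbered arrays correlated at 0.15, -0.00, -0.01 and 0.05. With the number as a replicate block 7316 probe sets were called.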
